A study of Homo sapiens with 9 samples.

Results

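Integrins and the proteins that join them to the cytoskeleton at focal adhesions are described here by their RNA, together with NEDD9, a CAS-family scaffold of the same sites. Members were picked by gene symbol and not by any value measured here, though with earlier results of these libraries known, and 41 of the 60649 genes of the deposited count table bore such a symbol. The group holds 13 integrin alpha chains, 8 integrin beta chains and 20 other proteins. Of these 41, 34 passed the filter on low counts and were tested among 14274 genes in all.

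The study asked what AHR, a ligand-activated transcription factor, does in triple-negative breast cancer cells. The human line MDA-MB-231 carried either the control vector pLKO-GFP, the hairpin shAHR#2 or the hairpin shAHR#3, each in 3 replicate libraries. All 9 libraries came from cells grown alike in serum-supplemented medium and labelled as proliferating, with no drug or ligand named in the labels. In the labels the hairpins are numbered #2 and #3, whereas the methods of the study number them #1 and #2, so the numbers of the labels are kept and no target sequence is assigned to them. The labels do not say whether replicates were separate cultures, so every p-value below measures only the spread between these libraries, which may be technical.

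Integrins are pairs of an alpha and a beta chain that bind the extracellular matrix, and the pairing sets which ligand is held. On the inner side talins and kindlins switch integrins on, vinculin, tensins and parvins link them to actin, and the kinases FAK and SRC phosphorylate scaffolds such as paxillin, p130Cas and NEDD9. Cell spreading, migration and survival on matrix all depend on these sites.

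The label was checked first. NEDD9 was counted in all 9 libraries, at 71 to 441 reads each. Levels are given as CPM, counts per 1000000 reads after scaling of the libraries by TMM, which corrects for library size and composition. The 7 mammary epithelial markers summed to 677, 713 and 695 CPM in the pLKO-GFP libraries, 771, 783 and 755 under shAHR#2 and 859, 875 and 913 under shAHR#3. KRT18 was the most abundant of them in the control, KRT8 was close to it, and the basal keratins KRT5 and KRT14 were at or near 0. Of the genes for the ER, PR and HER2 receptors, PGR had no read in any library, ESR1 averaged 0.0357 CPM in the control and ERBB2 62.4. Mesenchymal markers, led by VIM, summed to 2746, 2788 and 2746 CPM in the control, 4030, 4132 and 4018 under shAHR#2 and 3455, 3471 and 3520 under shAHR#3. Of the 3 genes in this sum (VIM, CDH2 and ZEB1), 1 did not pass the filter on low counts.

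Markers of other cell types were low. Among leukocyte genes CD3E had no read in any library. CD14 averaged 0.957 CPM in the control, 0.356 under shAHR#2 and 0.639 under shAHR#3, and PTPRC 0.119, 1.38 and 1.00. Fibroblast markers, 4 genes led by COL1A1, summed to 7.85, 5.49 and 6.94 CPM in the control, 10.6, 9.12 and 11.3 under shAHR#2 and 11.8, 11.6 and 14.0 under shAHR#3, and DCN and PDGFRA were at or near 0. COL1A1 made up most of this sum, LUM averaged 0.408 CPM in the control, 0.230 under shAHR#2 and 1.13 under shAHR#3, and COL1A2, not in this list, fell from 1.76 to 0.420 and 0.305. The 3 endothelial markers went from 2.71, 2.15 and 2.33 CPM to 10.4, 12.7 and 11.7 under shAHR#2 and 12.0, 13.1 and 13.3 under shAHR#3. PECAM1 made up nearly all of that sum, while CDH5 and VWF were at 0 in the control. These values moved with the groups compared below, and their part in any member's level was not tested.

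AHR itself stood at 114, 118 and 121 CPM in the control, 42.5, 40.4 and 41.9 under shAHR#2 and 46.3, 52.1 and 44.5 under shAHR#3. Every hairpin library lay under every control library. The fall was 1.50 on the log2 scale under shAHR#2 and 1.31 under shAHR#3 (adjusted p = 1.05e-25 and 4.95e-24, edgeR's quasi-likelihood test, Benjamini-Hochberg adjusted over all genes tested). Between the hairpins AHR was 0.19 higher under shAHR#3 (adjusted p = 0.00283), and this call was lost without shAHR#3 replicate 2 (0.13, adjusted p = 0.0626).

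In the control cells the most abundant members per kb of exon were the laminin-binding chains ITGA6 and ITGA3, the beta chain ITGB1 and CD44. To compare genes, CPM were divided by the length of the union of each gene's exons in kb (GENCODE release 44). That union was 14561 bases for ITGB1 and 6679 for ITGA6. Which transcripts these cells use was not tested, so the order depends on the lengths. Before the division, ITGB1 averaged 1253 CPM, TLN1 645 and ITGA6 576. ITGA6 stood at 86.2 ± 1.63 CPM per kb (SD, n = 3) and ITGB1 at 86.1 ± 1.29, and the libraries of these genes overlapped. ITGA3 (81.6 ± 1.15) and CD44 (81.1 ± 1.28) also overlapped each other and lay below both. TLN1 (65.0), VCL (54.6), ILK (51.3), ITGA2 (46.5) and PXN (44.8) followed without overlap between neighbours. NEDD9 ranked only 29 of 41 at 1.23 ± 0.0647 CPM per kb, under the other CAS scaffold BCAR1 at 3.42 ± 0.0268. At the low end were ITGB2, TNS1 and PTK2B, which overlapped at 0.751, 0.715 and 0.706, then ITGB8 at 0.254. Lowest of the members counted in every control library were ITGA7 at 0.0452 and PARVB at 0.0371, which overlapped.

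**Figure D1:**
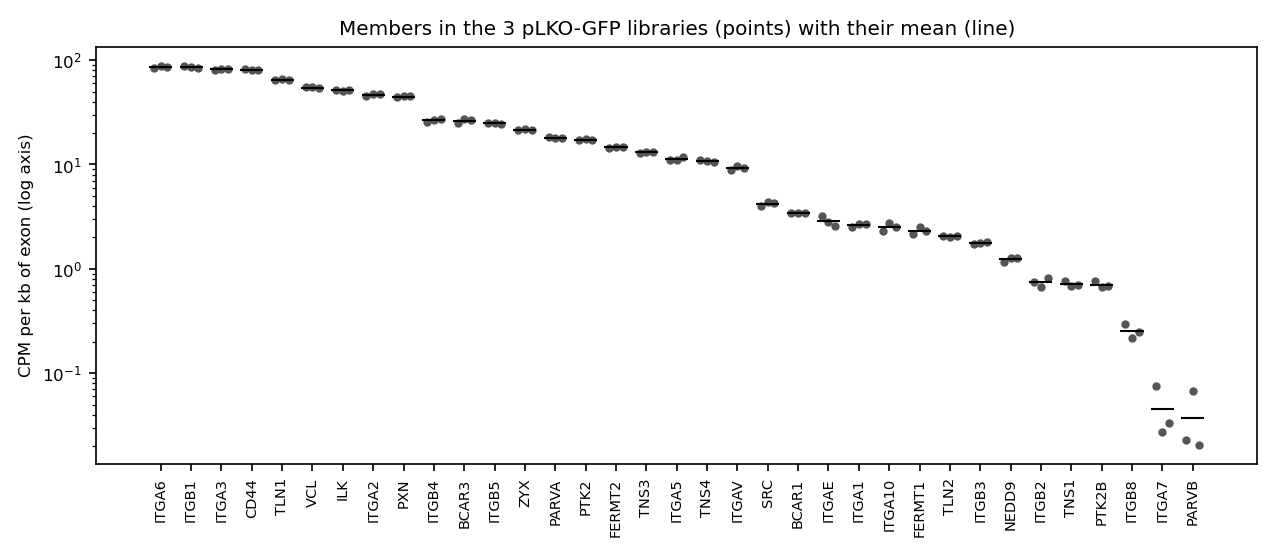
Levels of the 35 members that were counted in all 3 pLKO-GFP libraries, in CPM per kb of exon on a log axis, ordered by mean. Points are libraries and lines are means; ITGA6 and ITGB1 lead at 86.2 and 86.1.

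The 7 members that did not pass the filter were ITGA4, ITGA8, ITGA9, ITGA11, ITGB6, ITGB7 and PARVB. ITGA4 and ITGA8 had no read in any library, and ITGA11 had 1 read, in shAHR#2 replicate 1. ITGB6 was highest in shAHR#2 replicate 3 at 1.14 CPM. For these genes no fold change is given. Of 5 further leukocyte and platelet alpha chains looked at beside the members (ITGA2B, ITGAD, ITGAL, ITGAM and ITGAX), none passed the filter.

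With shAHR#2 the largest rise and the largest fall among the members were those of 2 tensins. TNS4, a tensin without the actin-binding part, rose 5.54-fold, and TNS1, a tensin that binds actin, fell 10.8-fold. Integrin chains ITGA2, ITGA5, ITGB4 and ITGB2 rose at least 2-fold. NEDD9 and the kinase PTK2B fell at least 2-fold, PTK2B by 4.93-fold. Of the 34 members tested, 21 were higher and 9 lower under shAHR#2 than with pLKO-GFP at an adjusted p under 0.05, while 4 did not pass. Of all genes tested 32.6% were called higher and 33.2% lower in the same comparison. Calls of at least 2-fold numbered 8, or 23.5% of the members tested, against 11.8% of all genes. The median log2 fold change of the members was 0.17, beside -0.003 for all genes.

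With shAHR#3 TNS4 again had the largest rise, 4.85-fold, and TNS1 the largest fall, 4.60-fold. ITGB4 and ITGB2 rose and ITGB8 fell at least 2-fold. NEDD9 was above its control level with this hairpin. Of the 34 members, 21 were higher and 6 lower and 7 did not pass, where 26.9% of all genes were called higher and 27.5% lower. At least 2-fold changes were called for 5 members, 14.7%, against 6.73% of all genes. Their median log2 fold change was 0.24, beside -6.88e-05 for all genes. Both comparisons share the 3 control libraries, so their results are set side by side and are not separate evidence.

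Compared directly, shAHR#3 had 11 members higher and 14 lower than shAHR#2, and 9 did not pass. Of all genes 21.9% were called higher and 20.4% lower. The difference was at least 2-fold for 6 members, 17.6%, against 3.71% of all genes. NEDD9, ITGB3, ITGA1, PTK2B and TNS1 were higher under shAHR#3, and ITGB8 was lower. The median over the members was -0.04, beside 0.007 over all genes. These counts describe the members tested, and whether they are particular to the list was not tested. Summed over the 41 members, the CPM were 7395, 7482 and 7390 in the control, 10231, 10284 and 10134 under shAHR#2 and 9119, 9098 and 9172 under shAHR#3.

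**Figure D2:**
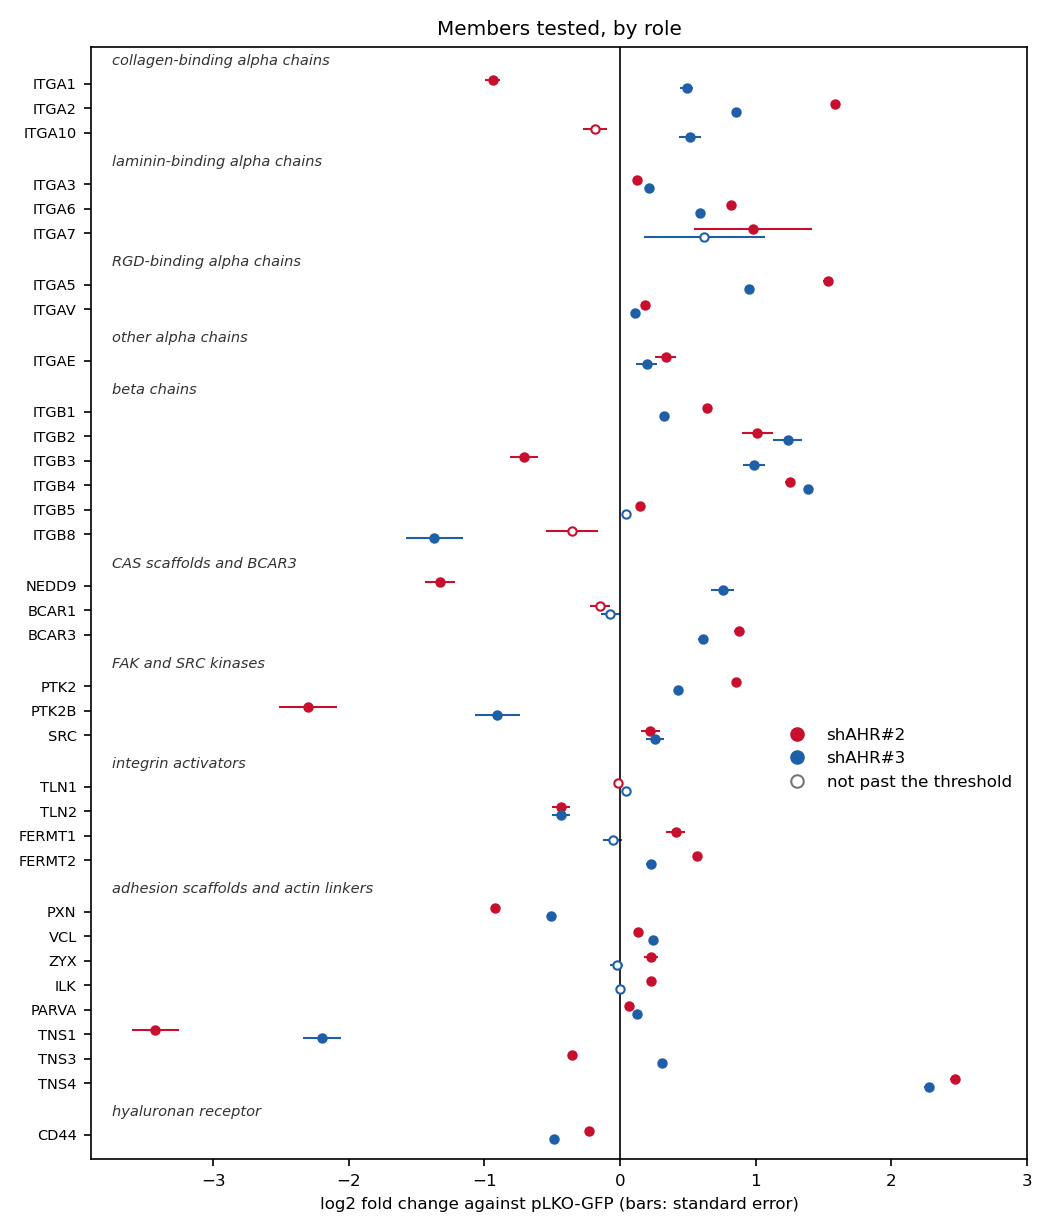
Log2 fold change of each of the 34 tested members against pLKO-GFP, grouped by role, for shAHR#2 (red) and shAHR#3 (blue). Bars are standard errors and open points did not pass the threshold; TNS4 and TNS1 lie farthest out at 2.47 and -3.43 under shAHR#2.

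Collagen-binding alpha chains parted. ITGA2, the alpha chain of the main collagen receptor of epithelial cells, stood at 360, 372 and 370 CPM with pLKO-GFP, 1118, 1099 and 1100 under shAHR#2 and 673, 669 and 656 under shAHR#3. The groups did not overlap, and shAHR#2 was highest and the control lowest. ITGA2 rose by 1.59 under shAHR#2 (standard error 0.03, adjusted p = 2.19e-35 by edgeR's quasi-likelihood test) and by 0.86 under shAHR#3 (standard error 0.03, adjusted p = 2.69e-26). As these are bulk libraries, a change in the share of cells that express a gene and a change in RNA per cell cannot be told apart, here or below. ITGA1, which binds collagen IV among others, was at 46.2, 50.1 and 50 CPM with pLKO-GFP, 25.4, 26.3 and 24.8 under shAHR#2 and 71.0, 67.3 and 67.9 under shAHR#3. It was lowest under shAHR#2 and highest under shAHR#3, again without overlap. Its log2 fold change was -0.94 under shAHR#2 (adjusted p = 2.54e-17) and 0.49 under shAHR#3 (adjusted p = 3.12e-11). ITGA10, a collagen II receptor chain of cartilage, rose by 0.52 under shAHR#3 (adjusted p = 7.16e-07). With shAHR#2 its value was -0.18, not past the threshold (adjusted p = 0.0613), though it passed without pLKO-GFP replicate 1 (-0.24, adjusted p = 0.0265).

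ITGA1 and ITGA2 are neighbours on chromosome 5, both on the plus strand, with 30130 bases between the end of ITGA1 and the start of ITGA2. The 656 tested genes of this chromosome had a median log2 fold change of -0.48 under shAHR#2, 84.1% of them with a negative value, and of -0.26 under shAHR#3, 79.6% negative. ITGA2 moved against the chromosome's median with both hairpins and ITGA1 only under shAHR#3. PELO begins at the same base as ITGA1 on the same strand and shares 499 exon bases with it. It was counted at 7569 reads over all libraries, and its log2 values were -0.28 and -0.12 (adjusted p = 3.31e-05 and 0.0479 by edgeR). The libraries were made with a stranded kit, but how the counting dealt with shared exons, and whether it used strand, is not given in the sources used here, so counts of overlapping genes are uncertain and the part of PELO in the ITGA1 values was not tested.

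All 3 laminin-binding alpha chains were called higher under shAHR#2, and ITGA6 and ITGA3 under shAHR#3 too. ITGA6, the partner of ITGB4 in hemidesmosomes, rose by 0.82 under shAHR#2 and 0.59 under shAHR#3 (adjusted p = 2.15e-26 and 1.49e-21, edgeR's quasi-likelihood test). It averaged 86.2 CPM per kb in the control, 152 under shAHR#2 and 130 under shAHR#3, and no library of a group overlapped another group. ITGA3, the chain of the laminin-332 receptor with ITGB1, rose by only 0.12 and 0.21 (adjusted p = 8.32e-05 and 9.63e-09). ITGA7, a laminin receptor chain of muscle, was close to the limit of counting in every library, at 0.250 to 0.835 CPM. Its log2 fold change of 0.98 under shAHR#2 passed the threshold narrowly (adjusted p = 0.0469). That call was lost with DESeq2 (adjusted p = 0.0965), without the count filter (0.0774) and when any of 7 of the 9 libraries was left out. With shAHR#3 the value was 0.62 and did not pass (adjusted p = 0.242).

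Among alpha chains that bind RGD sequences, ITGA5, which with ITGB1 forms the fibronectin receptor, stood at 80.9, 81.3 and 86.4 CPM with pLKO-GFP, 241, 244 and 236 under shAHR#2 and 157, 159 and 165 under shAHR#3. No group overlapped another, and shAHR#2 was highest. ITGA5 rose by 1.54 under shAHR#2 (standard error 0.03, adjusted p = 9.11e-31, edgeR) and by 0.95 under shAHR#3 (standard error 0.03, adjusted p = 1.50e-23). ITGAV, the partner of several beta chains, rose by 0.19 and 0.11 (adjusted p = 5.50e-06 and 0.00340), and its shAHR#3 libraries overlapped the control. ITGAE, which pairs with ITGB7 and binds E-cadherin, rose by 0.34 under shAHR#2 (adjusted p = 2.69e-04). With shAHR#3 it rose by 0.20 (adjusted p = 0.0283), with overlap between the groups. This call was lost with DESeq2 (adjusted p = 0.0613) and without pLKO-GFP replicate 2 or 3 or shAHR#3 replicate 2. Of the alpha chains, 7 of the 9 tested were higher and 1 lower under shAHR#2, and 8 were higher and 0 lower under shAHR#3. The shares over all genes were 32.6% higher and 33.2% lower under shAHR#2, and 26.9% and 27.5% under shAHR#3.

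Beta chains went up or down by chain. ITGB1, the partner of most alpha chains named above, stood at 1271, 1255 and 1234 CPM with pLKO-GFP, 1968, 1949 and 1951 under shAHR#2 and 1574, 1596 and 1534 under shAHR#3. It was highest under shAHR#2 and lowest in the control, with no overlap. The rise was 0.64 under shAHR#2 (standard error 0.02, adjusted p = 2.51e-23, edgeR's quasi-likelihood test) and 0.32 under shAHR#3 (standard error 0.02, adjusted p = 4.80e-14). ITGB4, the laminin-binding chain of hemidesmosomes, was at 174, 182 and 183 CPM in the control, 427, 438 and 419 under shAHR#2 and 457, 453 and 500 under shAHR#3. Both hairpin groups lay far above the control. ITGB4 rose by 1.25 under shAHR#2 and 1.39 under shAHR#3 (adjusted p = 1.54e-28 and 1.32e-29). ITGB2, the beta chain of leukocyte integrins, was low at 5.48, 4.94 and 6.03 CPM in the control, 11.0, 11.7 and 10.5 under shAHR#2 and 12.6, 12.9 and 13.3 under shAHR#3. None of the groups overlapped. It rose by 1.01 and 1.24 (adjusted p = 4.80e-10 and 1.79e-12), and its leukocyte alpha partners did not pass the count filter. The leukocyte marker PTPRC was called higher with both hairpins (adjusted p = 2.63e-07 and 1.05e-05, edgeR). CD14 was called lower under shAHR#2 (adjusted p = 0.00348) and did not pass under shAHR#3 (adjusted p = 0.170), and the part of these markers in the ITGB2 values was not tested.

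ITGB3, a vitronectin and fibrinogen receptor chain that pairs with ITGAV, was at 11.7, 12.2 and 12.3 CPM with pLKO-GFP, 6.97, 6.87 and 8.29 under shAHR#2 and 23.2, 25.4 and 23.0 under shAHR#3. The control lay between the hairpin groups, and none of the groups overlapped. ITGB3 fell by 0.71 under shAHR#2 (standard error 0.10, adjusted p = 1.53e-07, edgeR) and rose by 0.99 under shAHR#3 (standard error 0.08, adjusted p = 7.38e-13). ITGB8, another partner of ITGAV and a binder of latent TGF-beta, stood at 4.46, 3.30 and 3.80 CPM in the control, 2.95, 3.66 and 2.40 under shAHR#2 and 1.59, 1.38 and 1.47 under shAHR#3. Libraries of shAHR#2 overlapped the control and those of shAHR#3 lay below both. ITGB8 fell by 1.37 under shAHR#3 (adjusted p = 6.64e-07). With shAHR#2 its value of -0.35 did not pass (adjusted p = 0.0998), but it did without shAHR#2 replicate 2 (-0.51, adjusted p = 0.0382). ITGB5, a vitronectin receptor chain, rose by 0.15 under shAHR#2 (adjusted p = 1.33e-04) and was at 0.05 under shAHR#3, not past the threshold (adjusted p = 0.231). Of 6 beta chains tested, 4 were higher and 1 lower with each hairpin, beside 32.6% and 33.2% of all genes under shAHR#2 and 26.9% and 27.5% under shAHR#3.

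Shares of the chains describe the same levels within a library. Of the summed CPM per kb of all alpha chains, ITGA2 made up 19.2% in the control, 32.4% under shAHR#2 and 24.0% under shAHR#3 (means of n = 3). ITGA3 made up 33.6%, 20.6% and 26.9%. ITGA6 stayed between 35.3% and 37.0% in the group means. ITGA5 went from 4.62% to 7.54% under shAHR#2 and 6.19% under shAHR#3. Of the beta chains, ITGB1 made up 61.4%, 58.9% and 51.7%, and ITGB4 19.0%, 27.8% and 33.4%. The alpha chains summed to 243, 432 and 351 CPM per kb and the beta chains to 140, 228 and 208. Shares within a sum depend on each other and were not tested, and RNA shares give no numbers of chains at the cell surface. Shares and sums also depend on the union exon lengths, such as 14561 bases for ITGB1 and 6679 for ITGA6. The alpha and beta sums are therefore not set against each other.

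**Figure D3:**
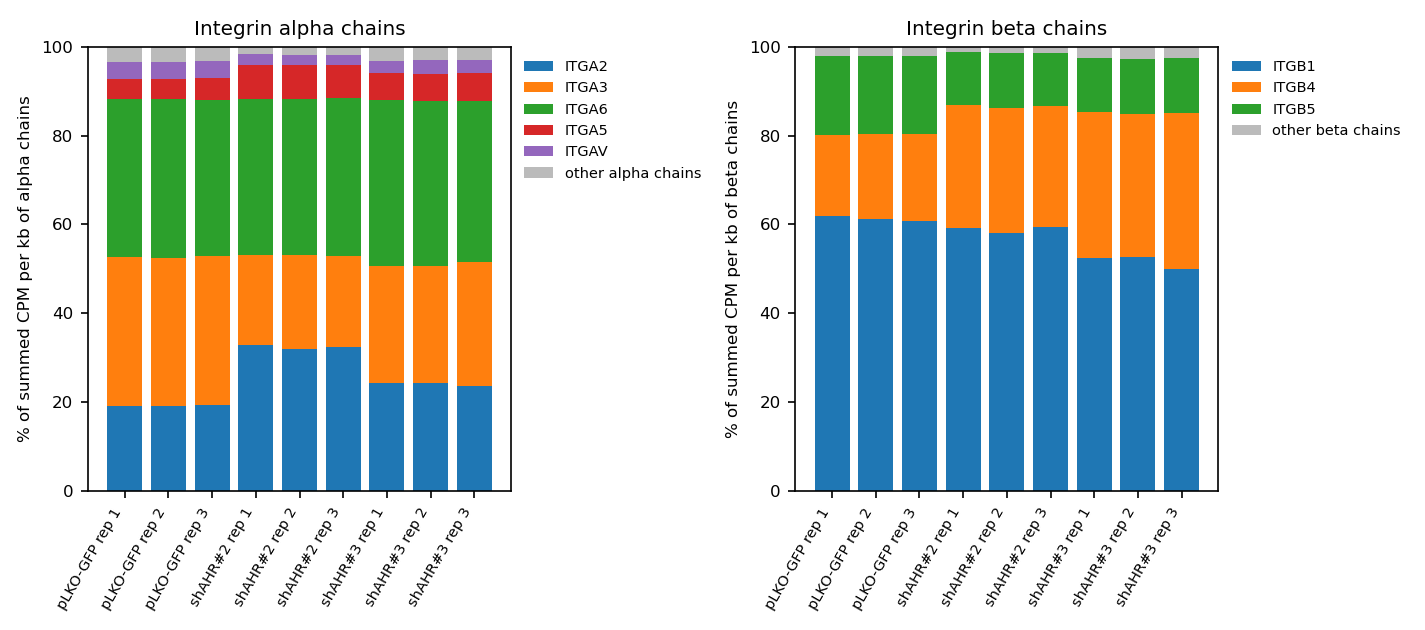
Share of each integrin chain in the summed CPM per kb of alpha chains and of beta chains, in percent, for each of the 9 libraries. ITGA2 averages 19.2% of the alpha sum in the control and 32.4% under shAHR#2, and ITGB4 19.0% of the beta sum in the control and 33.4% under shAHR#3.

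NEDD9, the scaffold named in the label of the group, docks SH2-domain proteins at adhesions and is linked to migration and to mitosis. It was at 12.0, 13.3 and 13.1 CPM with pLKO-GFP, 4.88, 4.56 and 5.88 under shAHR#2 and 22.7, 21.0 and 21.3 under shAHR#3. The control lay between the hairpin groups with no overlap. In reads, these were 213, 266 and 258 in the control, 91, 71 and 93 under shAHR#2 and 441, 410 and 436 under shAHR#3. NEDD9 fell by 1.33 under shAHR#2 (standard error 0.11, adjusted p = 3.38e-13, edgeR's quasi-likelihood test) and rose by 0.76 under shAHR#3 (standard error 0.08, adjusted p = 9.20e-10). The direct difference was 2.08 (standard error 0.10, adjusted p = 3.09e-19), or 4.24-fold.

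BCAR1, which encodes p130Cas, the best known scaffold of the CAS family, was at 31.4, 31.2 and 31.7 CPM in the control, 27.3, 31.0 and 27.1 under shAHR#2 and 31.9, 25.6 and 32.1 under shAHR#3. The shAHR#2 libraries were all below the control, and the shAHR#3 libraries overlapped it. Its log2 fold change was -0.15 under shAHR#2 and -0.07 under shAHR#3, neither past the threshold (adjusted p = 0.0812 and 0.416, edgeR's quasi-likelihood test). Without shAHR#2 replicate 2 the value under shAHR#2 was -0.21 and passed (adjusted p = 0.0275). BCAR3, which binds CAS proteins and carries an SH2 domain, rose by 0.87 under shAHR#2 and 0.61 under shAHR#3 (adjusted p = 1.31e-24 and 2.78e-19). CASS4 and EFS, the remaining CAS-family genes, did not pass the filter.

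The FAK family split. PTK2, which encodes FAK, was at 235, 242 and 234 CPM with pLKO-GFP, 441, 421 and 427 under shAHR#2 and 322, 321 and 312 under shAHR#3. The groups did not overlap, and shAHR#2 was highest. PTK2 rose by 0.86 under shAHR#2 (standard error 0.03, adjusted p = 1.14e-25, edgeR) and by 0.43 under shAHR#3 (standard error 0.03, adjusted p = 6.89e-16). PTK2B, its calcium-responsive relative PYK2, was at 5.99, 5.29 and 5.37 CPM in the control, 1.39, 1.16 and 0.759 under shAHR#2 and 2.47, 2.92 and 3.47 under shAHR#3. The order was the reverse of that of PTK2, with the control highest and shAHR#2 lowest. PTK2B fell by 2.30 under shAHR#2 (standard error 0.21, adjusted p = 4.51e-12) and by 0.90 under shAHR#3 (standard error 0.17, adjusted p = 2.03e-05). SRC, the kinase that FAK recruits, was at 28.3, 31.3 and 30.5 CPM in the control, 35.2, 38.7 and 31.4 under shAHR#2 and 34.8, 34.5 and 38.3 under shAHR#3. Both hairpin groups lay just above the control. SRC rose by 0.22 and 0.26 (adjusted p = 0.00446 and 0.00131), and the call under shAHR#2 was lost without shAHR#2 replicate 2 (adjusted p = 0.0634).

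**Figure D4:**
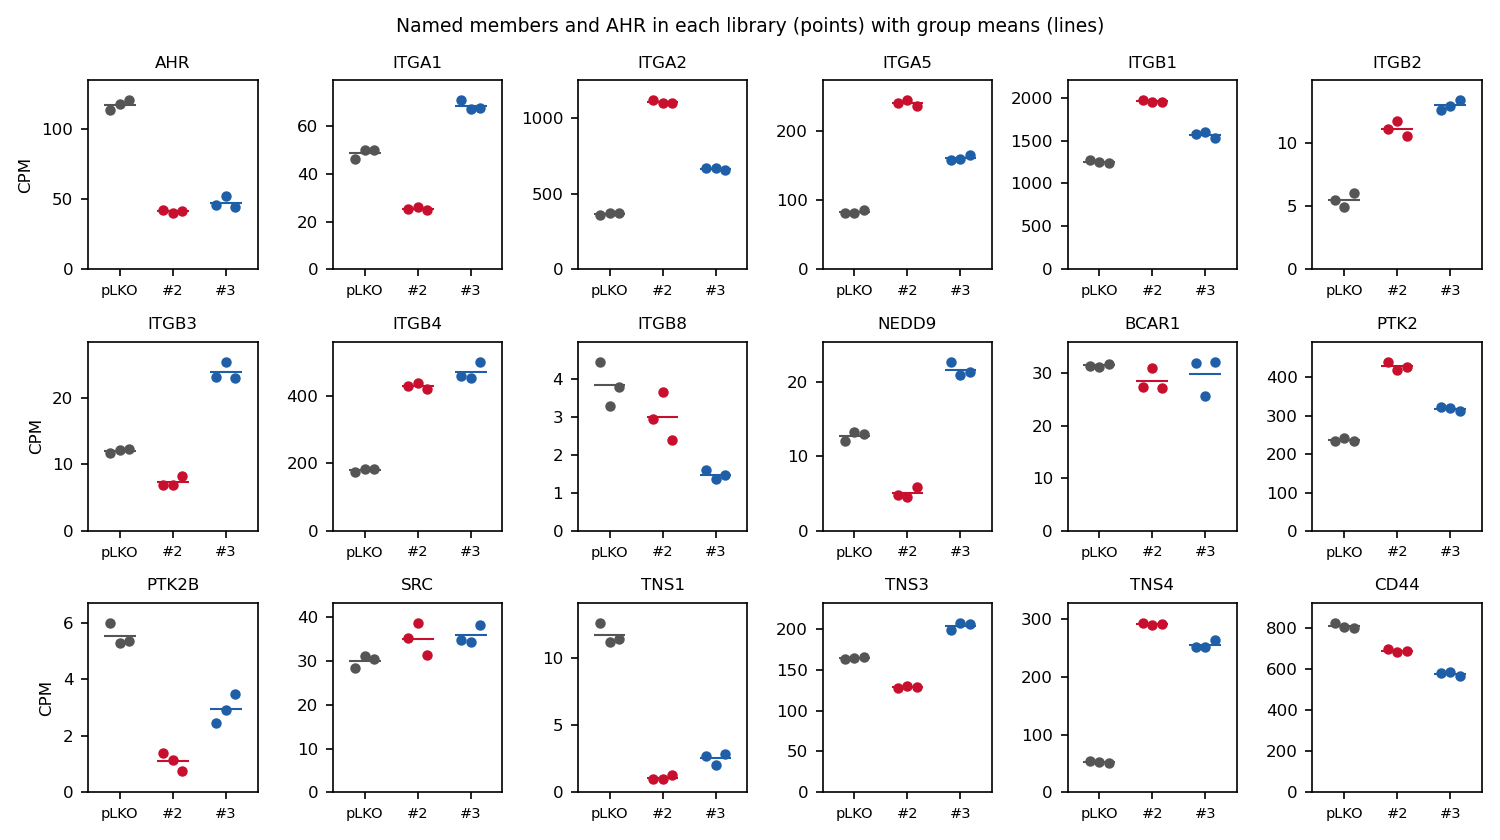
CPM of AHR and of 17 members in each library (points) with group means (lines), each panel from 0 and with its own scale. NEDD9, ITGA1, ITGB3 and TNS3 have the control between shAHR#2 and shAHR#3.

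Talins and kindlins, which bind the tails of beta chains and activate them, changed little or moderately. TLN1, the main talin, was at -0.01 and 0.05 on the log2 scale with the hairpins, neither past the threshold (adjusted p = 0.722 and 0.164, edgeR's quasi-likelihood test). TLN2 fell by 0.44 under shAHR#2 and 0.43 under shAHR#3 (adjusted p = 4.51e-07 and 4.90e-07). FERMT2, the kindlin of most adherent cells, rose by 0.57 and 0.23 (adjusted p = 5.42e-18 and 2.00e-07). FERMT1, the epithelial kindlin, rose by 0.41 under shAHR#2 (adjusted p = 2.41e-06). With shAHR#3 it was at -0.05 and did not pass (adjusted p = 0.545).

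Tensins tie integrin tails to actin and signalling proteins. With both hairpins TNS4 had the largest rise and TNS1 the largest fall of the members. TNS4, found mainly in epithelial cells, was at 54.2, 52.3 and 51.1 CPM with pLKO-GFP, 292, 290 and 291 under shAHR#2 and 251, 251 and 263 under shAHR#3. Both hairpin groups were far above the control, shAHR#2 more so. TNS4 rose by 2.47 under shAHR#2 and 2.28 under shAHR#3 (standard error 0.03 each, adjusted p = 5.40e-37 and 1.74e-35, edgeR). TNS1 was at 12.5, 11.2 and 11.4 CPM in the control, 0.965, 1.03 and 1.27 under shAHR#2 and 2.73, 2.05 and 2.83 under shAHR#3. It was highest in the control and lowest under shAHR#2, with no overlap. TNS1 fell by 3.43 under shAHR#2 and 2.20 under shAHR#3 (standard error 0.17 and 0.14, adjusted p = 1.87e-19 and 4.39e-16). TNS3, a tensin of many adherent cells, was at 163, 164 and 165 CPM in the control, 127, 130 and 129 under shAHR#2 and 199, 207 and 206 under shAHR#3. The control lay between the hairpin groups. TNS3 fell by 0.35 under shAHR#2 (adjusted p = 2.21e-12) and rose by 0.31 under shAHR#3 (adjusted p = 2.22e-11). Per kb of exon, the control order of these 3 tensins was TNS3 at 13.1, TNS4 at 10.8 and TNS1 at 0.715. TNS4 led them under shAHR#2 at 59.7 and under shAHR#3 at 52.3. A further tensin outside the members, TNS2, rose by 0.80 under shAHR#2 and 0.76 under shAHR#3 (adjusted p = 3.53e-19 and 3.68e-18, edgeR).

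Of the remaining scaffolds and linkers, paxillin changed most. PXN, the docking protein for FAK and vinculin, fell by 0.92 under shAHR#2 and 0.51 under shAHR#3 (adjusted p = 8.70e-26 and 5.47e-18, edgeR's quasi-likelihood test). VCL, vinculin, rose by 0.13 and 0.24 (adjusted p = 1.05e-05 and 7.56e-11). ILK, the pseudokinase that assembles with parvins, rose by 0.23 under shAHR#2 (adjusted p = 2.10e-08). ZYX, a LIM protein of adhesions and actin bundles, rose by 0.23 under shAHR#2 as well (adjusted p = 1.11e-04). With shAHR#3 neither passed, at 0.00 for ILK and -0.02 for ZYX (adjusted p = 0.983 and 0.697). PARVA, the parvin expressed here, rose by 0.12 under shAHR#3 (adjusted p = 2.85e-04). Its rise of 0.07 under shAHR#2 (adjusted p = 0.0342) was lost without the count filter (adjusted p = 0.116) and without any of 4 libraries of these groups. Exons of VCL, ILK, PXN and ITGAE overlap genes on the opposite strand, AP3M1, TAF10, PXN-AS1 and HASPIN in turn, so their counts carry the uncertainty named for ITGA1. So do those of ITGA7, with 100 reads in all, which shares 119 exon bases with BLOC1S1 on the opposite strand (1759 reads). ITGB3 shares 2266 exon bases, and AHR 2373, with another protein-coding gene on the same strand, and neither of these other genes had a read. As the treatment of shared exons is not given, the counts of ITGB3 and AHR carry the same uncertainty. Further members also share exon bases with other genes.

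CD44, the receptor for hyaluronan, was at 825, 806 and 801 CPM with pLKO-GFP, 698, 685 and 691 under shAHR#2 and 580, 590 and 566 under shAHR#3. It was highest in the control and lowest under shAHR#3, without overlap. CD44 fell by 0.23 under shAHR#2 (standard error 0.02, adjusted p = 3.24e-10, edgeR's quasi-likelihood test) and by 0.49 under shAHR#3 (standard error 0.02, adjusted p = 7.02e-19). Of the 19 non-integrin members tested, CD44 included, 10 were higher and 7 lower under shAHR#2 (52.6% and 36.8%, all genes 32.6% and 33.2%). For shAHR#3 these were 9 and 5 (47.4% and 26.3%, all genes 26.9% and 27.5%).

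Between the hairpins the largest differences were those of NEDD9 and ITGB3, followed by ITGA1 and PTK2B at 1.43 and 1.40. The order of ITGA1 and PTK2B is not settled, as PTK2B ranged from 1.20 to 1.62 when libraries were left out. NEDD9, ITGB3, ITGA1 and TNS3 were called lower under shAHR#2 and higher under shAHR#3. Compared directly, ITGB3 differed by 1.70, ITGA1 by 1.43 and TNS3 by 0.66 (adjusted p = 7.04e-18, 1.11e-22 and 6.71e-20, edgeR's quasi-likelihood test). As these members are picked here for calls on either side of shared controls, the direct contrast is no separate evidence for them. Other members changed in the same direction with both hairpins but by unequal amounts. ITGA2, ITGA5, ITGB1 and PTK2 were lower under shAHR#3 than under shAHR#2, by 0.73, 0.58, 0.32 and 0.43 (adjusted p = 3.59e-24, 5.93e-18, 1.04e-13 and 3.22e-16). PTK2B and TNS1, which fell with both, were higher under shAHR#3 by 1.40 and 1.23 (adjusted p = 5.60e-06 and 2.69e-05). ITGB4 was higher under shAHR#3 by 0.14 (adjusted p = 3.77e-04) and CD44 lower by 0.26 (adjusted p = 6.60e-11). For ITGB2, SRC, BCAR1 and TLN2 the direct difference did not pass (0.22, 0.03, 0.07 and 0.00, adjusted p = 0.0603, 0.734, 0.450 and 0.976), which does not show that their levels were equal.

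Ligands of the receptors changed too. Beside the members, 6 lists with 111 related genes had been fixed before the counts were read, again with earlier results known, and their counts stand beside the shares of all genes given above. A list of 26 integrin ligands and hyaluronan synthases had 22 genes tested. Under shAHR#2, 15 were higher and 6 lower (68.2% and 27.3%, all genes 32.6% and 33.2%). For shAHR#3 these were 15 and 5 (68.2% and 22.7%, all genes 26.9% and 27.5%). Medians of the log2 fold change were 0.62 and 0.55. LAMA4, a laminin alpha chain that ITGA6 pairs can bind, averaged 5.96 CPM in the control, 141 under shAHR#2 and 107 under shAHR#3. It rose by 4.57 and 4.16 (adjusted p = 5.07e-38 and 4.02e-36, edgeR's quasi-likelihood test). FN1, the ligand of the ITGA5 pair, rose by 1.56 and 1.07 (adjusted p = 1.94e-35 and 1.04e-29). HAS2, which makes the hyaluronan that CD44 binds, rose by 2.85 and 2.05 (adjusted p = 5.40e-37 and 1.42e-31). TNC, a ligand of ITGAV and ITGA9 pairs, fell by 1.92 and 2.36 (adjusted p = 5.06e-24 and 4.64e-26). THBS1, bound by ITGAV and ITGB3 among others, fell by 1.54 and 1.24 (adjusted p = 1.70e-34 and 5.83e-31).

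Partners inside the cell were called in both directions, and the shares of all genes called higher and lower were 32.6% and 33.2% under shAHR#2 and 26.9% and 27.5% under shAHR#3. Of 10 CAS-family, BCAR3-family and CRK-DOCK genes 7 were tested, with 3 higher and 3 lower under shAHR#2 (42.9% each) and 3 and 1 under shAHR#3 (42.9% and 14.3%). CRK, the adaptor that binds phosphorylated NEDD9 and p130Cas, rose by 0.50 and 0.30 (adjusted p = 1.79e-06 and 0.00188, edgeR's quasi-likelihood test). ELMO2 of this list fell by 0.30 and 0.16 (adjusted p = 1.10e-06 and 0.00287, edgeR). SH2D3A fell by 1.19 under shAHR#2 (adjusted p = 2.75e-11, edgeR). With shAHR#3 it was at -0.08 and did not pass (adjusted p = 0.495). Among 24 kinases, phosphatases and GTPase regulators of adhesions, 15 were higher and 4 lower under shAHR#2 (62.5% and 16.7%) and 13 and 6 under shAHR#3 (54.2% and 25%). FYN, a relative of SRC, rose by 0.72 and 0.34 (adjusted p = 2.86e-14 and 2.24e-06), and RAC1, the GTPase downstream of CAS scaffolds, fell by 0.49 and 0.20 (adjusted p = 5.53e-18 and 5.87e-08). The 25 actin-linking and LIM genes tested had 11 higher and 9 lower under shAHR#2 (44% and 36%) and 9 and 5 under shAHR#3 (36% and 20%). Of 19 genes for tail regulators, trafficking and membrane partners, 12 were higher and 4 lower under shAHR#2 (63.2% and 21.1%) and 10 and 3 under shAHR#3 (52.6% and 15.8%). CD9, a tetraspanin that associates with ITGB1 pairs, rose by 1.04 and 0.99 (adjusted p = 1.61e-26 and 1.49e-25). ITGB1BP1 of the same list fell by 0.36 and 0.27 (adjusted p = 7.37e-10 and 1.77e-07, edgeR). SDC1 fell by 0.30 and 0.31 (adjusted p = 7.56e-07 and 5.83e-07, edgeR).

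**Figure D5:**
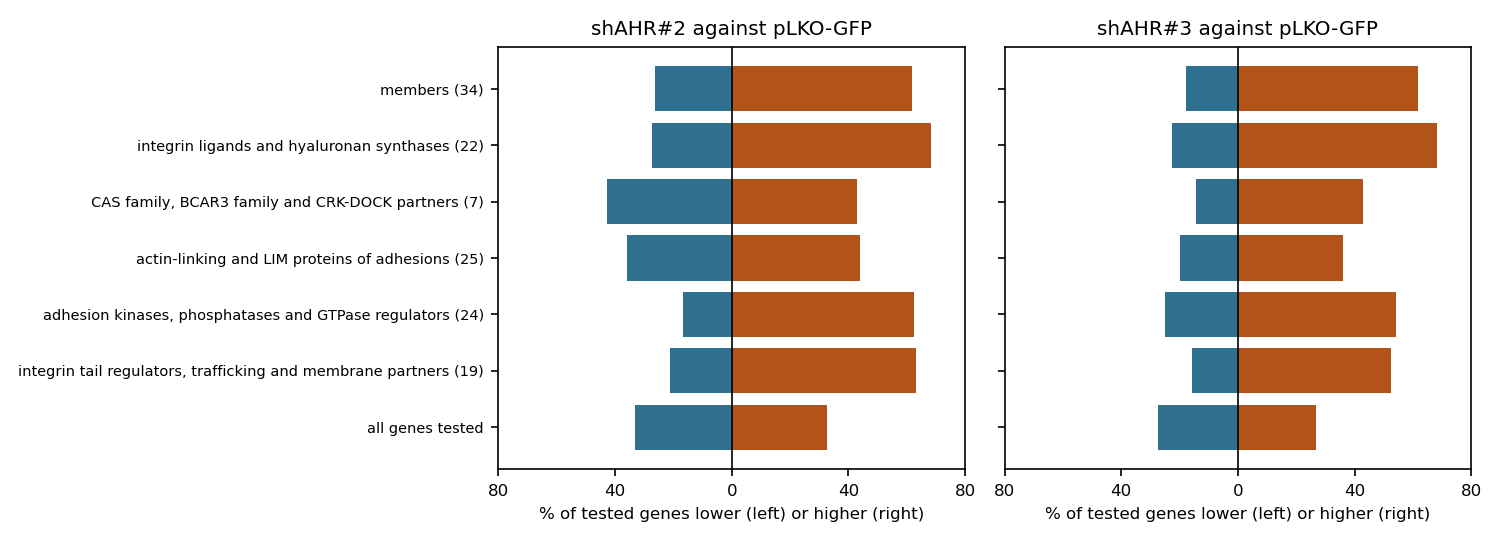
Percent of the tested genes of each list called lower (left) and higher (right) against pLKO-GFP, for shAHR#2 and shAHR#3 in separate panels, with the number tested in brackets. Of the members 61.8% are higher with each hairpin, beside 32.6% and 26.9% of all genes.

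Upstream sequences of the members were read for the core letters bound by AHR with its partner ARNT, GCGTG, as a description. Promoter windows of 300 bases came from RefSeq on build GRCh38.p14 and matched 29 of the 41 members. Each runs from 250 bases before to 50 after a start listed there, and a gene may have several, some of them inside the gene or away from its start in GENCODE. Without a window were ITGA3, ITGA7, ITGA9, ITGB2, ITGB3, ITGB4, PTK2, PTK2B, SRC, FERMT1, PARVA and TNS4. Of the 57 windows of these 29 members 23 held the letters on either strand, 40.4%, beside 36.4% of all 34796 windows. By gene, 16 members had them in at least 1 window. No share by gene was taken over all genes, and a gene with many windows, such as BCAR3 with 10, has more places for them. The count by gene is therefore not set against the 36.4%. Neither the window of ITGA1 nor the 3 windows each of NEDD9 and TNS3 held them, which says only that the letters are not in these bases. Also without them were ITGB1, CD44, VCL, ITGA8, ITGA10, ITGA11, ITGAE, ITGB6, TLN1 and ZYX. ITGA2 and ITGA5 were among the 16 that held them. A match is no evidence of a binding site. Window bases that lie before the listed start and before the GENCODE start are printed for NEDD9, which names the group, for the neighbours ITGA1 and ITGA2 and for ITGA5, each 5' to 3' on the strand of its gene, with capitals marking GCGTG or its reverse complement CACGC. They span chr6:11382349-11382598 on the minus strand (NEDD9), chr5:52787666-52787915 on the plus strand (ITGA1), chr5:52989102-52989339 on the plus strand (ITGA2) and chr12:54419267-54419516 on the minus strand (ITGA5).
NEDD9: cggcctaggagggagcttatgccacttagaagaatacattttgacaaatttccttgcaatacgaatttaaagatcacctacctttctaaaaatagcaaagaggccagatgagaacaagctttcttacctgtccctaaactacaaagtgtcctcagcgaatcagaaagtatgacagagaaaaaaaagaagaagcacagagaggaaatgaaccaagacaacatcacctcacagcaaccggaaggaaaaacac
ITGA1: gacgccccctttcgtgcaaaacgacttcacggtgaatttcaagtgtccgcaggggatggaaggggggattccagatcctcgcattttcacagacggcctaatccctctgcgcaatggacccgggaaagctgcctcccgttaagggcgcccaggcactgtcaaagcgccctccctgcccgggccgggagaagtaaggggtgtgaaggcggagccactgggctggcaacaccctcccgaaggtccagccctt
ITGA2: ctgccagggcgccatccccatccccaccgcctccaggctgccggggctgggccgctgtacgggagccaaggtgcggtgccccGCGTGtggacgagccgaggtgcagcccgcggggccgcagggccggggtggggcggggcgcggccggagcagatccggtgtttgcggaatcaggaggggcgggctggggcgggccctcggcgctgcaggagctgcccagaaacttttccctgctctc
ITGA5: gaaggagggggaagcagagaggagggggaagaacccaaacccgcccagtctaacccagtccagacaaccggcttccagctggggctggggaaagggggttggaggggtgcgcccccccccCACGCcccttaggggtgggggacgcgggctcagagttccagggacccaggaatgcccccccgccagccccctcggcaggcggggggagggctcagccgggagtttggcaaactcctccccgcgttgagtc

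Other members also lie on chromosomes whose tested genes had a median away from 0. ITGB1 and VCL, which rose, lie on chromosome 10, whose 573 tested genes had median log2 fold changes of -0.32 under shAHR#2 and -0.15 under shAHR#3. SRC and FERMT1 lie on chromosome 20, with medians of -0.31 and -0.14 over 382 genes. ITGA5, which rose, and PXN, which fell, both lie on chromosome 12, as does ITGA7, with medians of 0.22 and 0.17 over 794 genes. FERMT2, which rose, lies on chromosome 14, with medians of 0.23 and 0.15 over 456 genes. Medians of the other chromosomes that hold members lay closer to 0, among them chromosome 17 at 0.13 and 0.12, chromosome 3 at 0.13 and 0.09, chromosome 8 at 0.10 and 0.08 and chromosome 2 at -0.07 and -0.10. These hold ITGA3, ITGAE, ITGB3, ITGB4 and TNS4 (17), ITGB5 (3), PTK2 and PTK2B (8) and ITGA6, ITGAV and TNS1 (2). The part of these shifts in the levels of the members was not tested. Protein features were not analysed here.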

How the data were processed

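The deposited unit was the raw read count of each gene, as produced by the authors, and all columns were mapped to the 9 samples through their labels. The submitters' processing notes name FastQC, STAR, featureCounts of Subread and GRCh38.p13; the annotation release and strand setting are not given in the sources used here. Library totals ranged from 15991396 to 20374460. Later steps used edgeR 4.0.16, limma 3.58.1 and DESeq2 1.42.0 in R 4.3.3, and matplotlib 3.10.9 in Python 3.11.15. Genes were kept by filterByExpr (minimum count 10, minimum total count 15) and scaled by TMM. The quasi-likelihood test of edgeR was fitted once to all libraries with group only, and p-values were adjusted by Benjamini-Hochberg and called under 0.05. Values in each library are given for 6 members fixed beforehand, for those at least 2-fold changed and for those with opposite calls. Alternatives were DESeq2, which the study used, its size factors, other count filters, fits of only the groups compared, a replicate block and leaving out each library. The members and lists were chosen with earlier results of these data known. The fits were tried on simulated data before use.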

Additional observations from a re-analysis of the deposited data

Results flagged for a closer look

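Members were singled out here when their difference between the hairpins was tested and passed while the calls against pLKO-GFP went in opposite directions. In shAHR#3 against shAHR#2 the log2 fold change was 2.08 for NEDD9 (adjusted p = 3.09e-19, edgeR's quasi-likelihood test, Benjamini-Hochberg adjusted). ITGB3 differed by 1.70 in the same contrast (adjusted p = 7.04e-18, edgeR). ITGA1 differed by 1.43 (adjusted p = 1.11e-22, edgeR), with the exon overlap of PELO described above. TNS3 differed by 0.66 (adjusted p = 6.71e-20, edgeR). The direct contrast is no separate evidence for members chosen in this way.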

How the results depend on the processing

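No alternative turned the direction of a called member. AHR in shAHR#3 against shAHR#2 was 0.19 in the main setting and 0.13 to 0.24 when libraries were left out, with the call lost without shAHR#3 replicate 2 (adjusted p = 0.0626, edgeR). Leaving out libraries gave 18 to 21 members higher and 9 to 11 lower under shAHR#2. It gave 20 to 21 higher and 6 lower under shAHR#3, and 11 to 12 higher and 13 to 15 lower between the hairpins. Some log2 values then crossed the 2-fold cut of 1, so the 2-fold counts depend on single libraries. ITGB2 ranged from 0.94 to 1.09 and ITGA7 from 0.72 to 1.51 under shAHR#2. Under shAHR#3 ITGB3 ranged from 0.94 to 1.01 and PTK2B from -1.04 to -0.79. Between the hairpins ITGB8 ranged from -1.14 to -0.86. DESeq2 gave 20 and 9, 20 and 6, and 11 and 14. With the replicate block AHR was at -1.50, -1.31 and 0.19, and member calls were 21 and 9, 21 and 6, and 11 and 15, the addition being ITGAV between the hairpins (adjusted p = 0.0448, edgeR). Residuals of libraries with the same replicate number had r from 0.003 to 0.058 and others from -0.068 to 0.023. The labels tie the number to no batch or day, and whether a weak shared effect is present was not tested. Calls between the hairpins also changed for ITGB5, lost without shAHR#2 replicate 2 or shAHR#3 replicate 1, for TLN1, gained without shAHR#2 replicate 2 or shAHR#3 replicate 2, and for ITGAV, gained without shAHR#3 replicate 2. BCAR1 under shAHR#2 passed without shAHR#3 replicate 2 (adjusted p = 0.0497, edgeR). The cause of these changes was not tested.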
